A study of Ovis aries with 27 samples.

Results

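The genes described here are 5 inflammatory genes measured in the heart septum of fetal sheep: ICAM1, IL10, ALOX5AP (also called FLAP, the name it has on the array), TRAF3 and TLR7. They were chosen because their levels appeared to shift in opposite directions with cortisol at 2 ages, so the cortisol differences below are given as a description without a test. They had 9 of the 15008 probes on the array, and 7 of these were among the 12770 probes bright enough to be tested. The group means showed such opposite shifts for 3 of the 5 genes (ICAM1, IL10 and ALOX5AP). With another background correction, given beside each gene, IL10 lost its opposite signs. The TRAF3 means differed by -0.00 on the log2 scale at 130 d, and the TLR7 mean was lower with cortisol at both ages.

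RNA from the septum, the muscular wall between the ventricles, was hybridised to 1-colour Agilent arrays, 1 array for each of 27 fetuses, with Cy3-labelled cRNA. Each ewe was infused without a break, either with 1 mg/kg/d of cortisol or with vehicle alone. The groups were 6 cortisol and 6 control fetuses at 130 d of gestation (129 to 131 d), infused for about 10 d from about 120 d, and 7 cortisol and 8 control fetuses at 140 d (139 to 144 d), infused for about 25 d from about 115 d. In one field of the labels the infusions start near 115 d in both cohorts. The fetuses were singletons apart from 1 set of twins among the 8 controls at 140 d (7 ewes), which the labels leave unmarked, so every fetus was counted as 1 replicate. Because each age was its own cohort with its own length of infusion, these 3 factors cannot be told apart. The cortisol was given to the ewe, and no fetal hormone level was used here.

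The 5 genes act at successive steps of inflammation, as known mainly from human and mouse. Toll-like receptors such as TLR7, which binds single-stranded RNA in endosomes, start signalling, and the adaptor TRAF3 passes some of it on to interferon genes while restraining the alternative NF-kappaB pathway. The outputs include ICAM1, a surface protein of endothelium and leukocytes that binds leukocyte integrins, and IL10, a cytokine made by macrophages and lymphocytes that damps the response. ALOX5AP presents arachidonic acid to 5-lipoxygenase for leukotriene synthesis and is found chiefly in myeloid cells. Glucocorticoids such as cortisol, the main one of sheep, are known to restrain many inflammatory genes.

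The probe sequences are shown for ICAM1, the member with the widest cortisol differences, and for TLR7, where 2 overlapping probes gave different pictures. Both sets come from the deposited scanner files and run from the 5′ to the 3′ end, and capitals mark the 20 bases that the TLR7 probes share. The ICAM1 probe covers bases 1522 to 1581 of its RefSeq transcript, and the TLR7 probes cover bases 2937 to 2996 and 2977 to 3036 of theirs, per the positions in those files.
ICAM1 probe: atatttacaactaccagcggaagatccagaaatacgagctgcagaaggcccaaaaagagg
TLR7 probe, dim: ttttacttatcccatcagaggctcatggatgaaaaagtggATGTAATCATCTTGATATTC
TLR7 probe, used: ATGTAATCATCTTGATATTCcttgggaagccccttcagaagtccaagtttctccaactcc
The dim TLR7 probe was well above background on 1 of 27 arrays and the other on 24 of 27, so only the brighter probe was tested. Over the 27 arrays the signals of the pair correlated at r = 0.13. IL10 also had a pair of probes with 20 shared bases of 60, well above background on 19 and 5 arrays (r = 0.64). The ALOX5AP probes shared 40 bases (r = 0.95) and the TRAF3 probes 59 (r = 0.83). The brightest probe of each gene is used below unless another is named.

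Levels are log2 of the spot signal relative to the 75th percentile of the same array, so a value of 0 is the level of that percentile. Between 77.0% and 87.0% of the spots of an array were well above background, and no spot was saturated. The 75th percentile of the signal averaged 1093 ± 77.0 in cortisol and 1160 ± 101 in control fetuses at 130 d, against 884 ± 149 in cortisol and 838 ± 59.3 in control fetuses at 140 d (SD). Arrays at 140 d were thus dimmer, which touches the dim members most. Among the tested probes ALOX5AP stood at percentile 49.5 of brightness, ICAM1 at 22.7, TRAF3 at 15.4, TLR7 at 11.3 and IL10 at 8.56. Of the 12 cardiomyocyte markers in the lists, 0 had a tested probe with a name, so the tissue could not be checked with them.

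A pair of arrays recurs in the results. Cortisol replicate 4 at 140 d correlated with the mean of the rest of its group at r = 0.962 over all probes, and the SD of its difference from that mean was 0.837, while the other 6 arrays of the group had SDs of 0.389 to 0.520. It lay above the mean of the other 6 by 1.84 for ICAM1, 1.74 for IL10, 1.34 for ALOX5AP and 0.57 for TLR7, while TRAF3 differed by -0.01. Control replicate 3 at 130 d correlated normally with its group (r = 0.988) but lay above the mean of the other 5 controls in all 5 genes, by 1.59 for ALOX5AP, 0.85 for IL10, 0.84 for ICAM1, 0.42 for TRAF3 and 0.06 for TLR7. Both arrays were on the same slide. Results that rest on them are given with and without them.

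The mean of ICAM1 was lower in cortisol than in control fetuses at 130 d and higher at 140 d. At 130 d its level lay between -4.55 and -3.97 (median -4.36) with cortisol and between -4.25 and -1.73 (median -3.63) in controls. At 140 d it lay between -4.49 and -2.31 (median -4.05) with cortisol and between -5.36 and -4.33 (median -4.57) in controls. The groups overlapped at both ages. At 130 d the 6 cortisol fetuses sat close together while 3 of the controls were far above them, and at 140 d cortisol replicate 4 was far above the rest. All 6 cortisol fetuses at 130 d were below the mean of their controls, and all 7 at 140 d were above it.

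The cortisol difference of ICAM1 was -0.97 ± 0.35 (SE) at 130 d, 0.512 of the control level, and 0.77 ± 0.31 at 140 d, 1.70 times the control level. The difference between these was 1.73 ± 0.47. With another background correction (normexp, which adds an offset of 50 to every spot) these values were -0.14 ± 0.39, 0.46 ± 0.35 and 0.61 ± 0.52, so the signs stayed and the value at 130 d was far smaller than its error. Normexp also shifted the medians of all tested probes, to 0.20, 0.05 and -0.17, against 0.01, -0.04 and -0.04 in the main fit. The value of ICAM1 at 140 d was 0.50 ± 0.27 without cortisol replicate 4 and control replicate 3. Without control replicate 3 the value at 130 d was -0.83 ± 0.36, and without control replicate 5, the highest control, it was -0.65. Within slides the sign was the same throughout, at -0.37, -1.29 and -1.24 for slides 2, 3 and 4 at 130 d and at 0.47, 1.01, 1.31 and 0.24 for slides 2, 3, 4 and 5 at 140 d. Each value rests on few arrays, 2 against 2 except 1 against 1 in slide 4 and 1 against 3 in slide 5 at 140 d. The other genes had the same numbers of arrays. In slide 4 at 140 d the control was replicate 5, the lowest of its group (-5.36). Slide 3 held cortisol replicate 4 at 140 d and control replicate 3 at 130 d. The cortisol differences of ICAM1 are the values by which it was chosen. In bulk tissue, fewer cells of a type and less RNA per cell cannot be told apart.

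**Figure D1:**
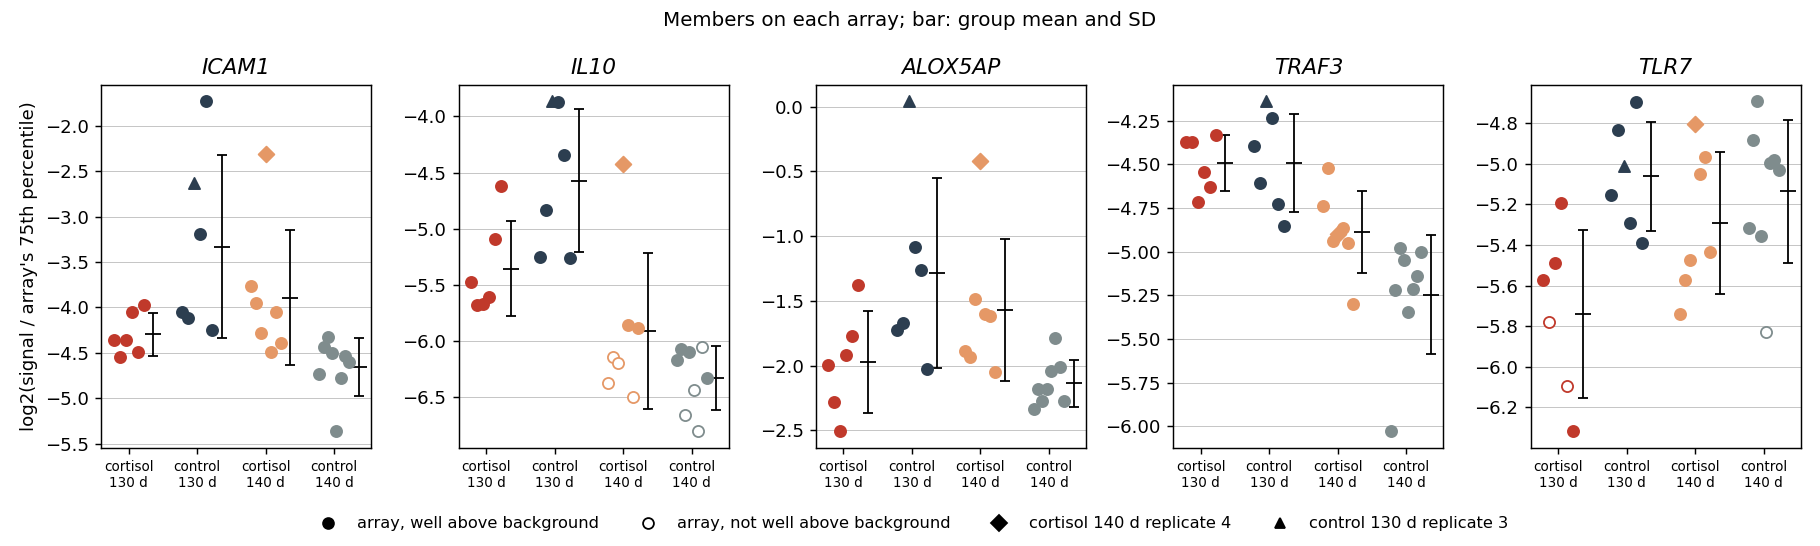
Levels of the 5 genes on each array (vertical axis, log2 of signal over the array's 75th percentile) in cortisol and control fetuses at 130 d and 140 d, with bars for the group mean and SD. Cortisol replicate 4 at 140 d is highest of its group in ICAM1 (-2.31), IL10 (-4.42), ALOX5AP (-0.42) and TLR7 (-4.80), and open points were not well above background.

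IL10 had the same pattern of signs at a lower level. At 130 d its level lay between -5.68 and -4.62 (median -5.54) with cortisol and between -5.26 and -3.87 (median -4.59) in controls. At 140 d it lay between -6.50 and -4.42 (median -6.14) with cortisol and between -6.80 and -6.06 (median -6.25) in controls. At 130 d the groups overlapped in part, with all 6 cortisol fetuses below the control mean. At 140 d 5 of 7 cortisol fetuses were above the control mean, and cortisol replicate 4 alone stood well clear of the controls. The probe was well above background on all 12 arrays at 130 d but at 140 d on only 3 of the 7 with cortisol and 4 of the 8 controls, so the levels at 140 d are near the limit of measurement.

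For IL10 the cortisol difference was -0.79 ± 0.29 at 130 d and 0.42 ± 0.26 at 140 d, and the difference between them was 1.20 ± 0.39. With normexp the value at 130 d turned to 0.28 ± 0.40, that at 140 d was 0.22 ± 0.35, and the difference between them was -0.07 ± 0.53, so the opposite signs of IL10 depend on the background correction. The positive value at 130 d is near the median of all tested probes with normexp, which was 0.20. In the fit without cortisol replicate 4 and control replicate 3 the values of IL10 were -0.64 ± 0.23 at 130 d and 0.17 ± 0.20 at 140 d. Within slides it was -0.54, -1.77 and -0.05 for slides 2, 3 and 4 at 130 d, and -0.05, 1.23, -0.06 and 0.51 for slides 2, 3, 4 and 5 at 140 d. The widest value at each age was that of slide 3, which held both arrays described above. The dimmer IL10 probe exceeded background clearly on 1 of 6 arrays with cortisol and 3 of 6 controls at 130 d, and on 0 of 7 with cortisol and 1 of 8 controls at 140 d, so no difference is given for it.

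ALOX5AP, the brightest member, also had a lower mean with cortisol at 130 d and a higher one with cortisol at 140 d. At 130 d its level lay between -2.51 and -1.38 (median -1.96) with cortisol and between -2.02 and 0.04 (median -1.46) in controls. At 140 d it lay between -2.05 and -0.42 (median -1.62) with cortisol and between -2.33 and -1.78 (median -2.18) in controls. The groups overlapped at both ages, and the top array was control replicate 3 at 130 d and cortisol replicate 4 at 140 d. As for ICAM1, all 6 cortisol fetuses at 130 d were below the mean of their controls and all 7 at 140 d were above it.

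The cortisol difference of ALOX5AP was -0.69 ± 0.27 at 130 d, 0.621 of the control level, and 0.56 ± 0.24 at 140 d, 1.48 times the control level. With normexp these values were -0.35 ± 0.26 and 0.51 ± 0.23. The second ALOX5AP probe gave -0.66 ± 0.28 and 0.47 ± 0.25. Without control replicate 3 the value at 130 d was -0.42 ± 0.23, and without cortisol replicate 4 as well the value at 140 d was 0.37 ± 0.16. Within slides it was -0.44, -1.69 and 0.07 for slides 2, 3 and 4 at 130 d, and 0.55, 1.22, 0.42 and -0.03 for slides 2, 3, 4 and 5 at 140 d. The opposite signs at the 2 ages held in slides 2 and 3 but not in slide 4.

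**Figure D2:**
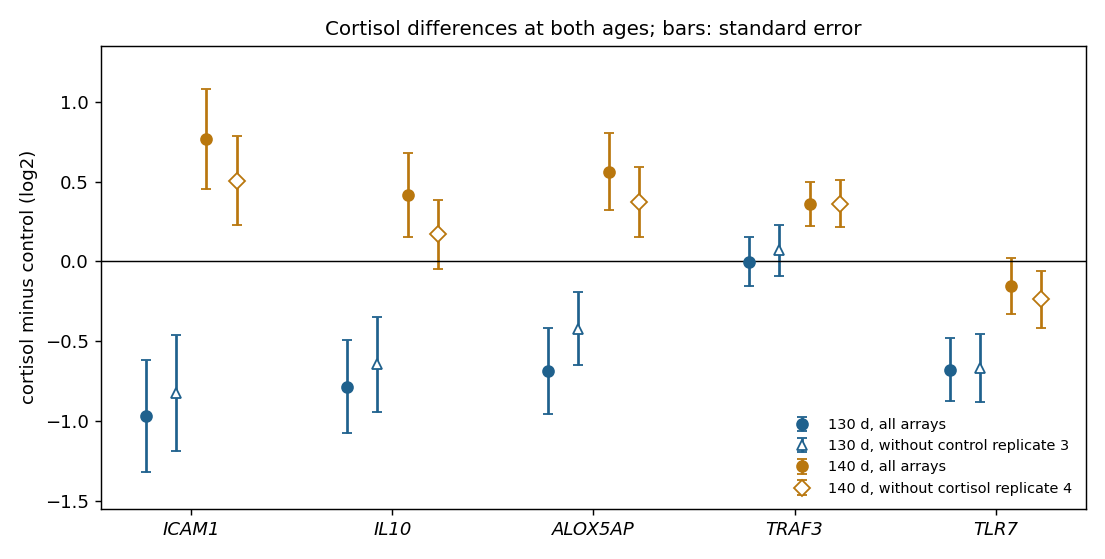
Cortisol minus control (vertical axis, log2, with standard error) for the 5 genes at 130 d and 140 d, with all arrays (filled) and without control replicate 3 at 130 d or cortisol replicate 4 at 140 d (open). ICAM1, IL10 and ALOX5AP lie below 0 at 130 d and above 0 at 140 d, TRAF3 is near 0 at 130 d, and TLR7 is below 0 at both ages.

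TLR7 differed from the genes above. At 130 d its level lay between -6.32 and -5.19 (median -5.68) with cortisol and between -5.39 and -4.69 (median -5.08) in controls. At 140 d it lay between -5.74 and -4.80 (median -5.43) with cortisol and between -5.83 and -4.69 (median -5.01) in controls. At 130 d 1 cortisol fetus reached into the range of the controls' lower values and the other 5 were below every control, while at 140 d the groups covered almost the same range. The cortisol difference was -0.68 ± 0.20 at 130 d and -0.16 ± 0.18 at 140 d, so the mean was lower with cortisol at both ages. Within slides it was -0.68, -0.19 and -1.16 for slides 2, 3 and 4 at 130 d, and -0.42, 0.10, 0.86 and -0.43 for slides 2, 3, 4 and 5 at 140 d. The sign thus differed between the ages in slides 3 and 4, on few arrays. In slide 4 at 140 d it was 1 array against 1, and that control (-5.83) was not well above background. The value of slide 3 at 140 d included cortisol replicate 4 (-4.80). For TLR7 the change of sign within slides is therefore uncertain. With normexp the cortisol difference was 0.40 ± 0.40 at 130 d and 0.09 ± 0.36 at 140 d, where the medians of all tested probes were 0.20 and 0.05. The probe exceeded background clearly on 4 of 6 arrays with cortisol and 6 of 6 controls at 130 d, and on 7 of 7 with cortisol and 7 of 8 controls at 140 d.

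The level of TRAF3 at 130 d lay between -4.72 and -4.33 (median -4.46) with cortisol and between -4.85 and -4.14 (median -4.50) in controls, so the cortisol fetuses lay within the range of the controls. At 140 d it lay between -5.30 and -4.52 (median -4.90) with cortisol and between -6.03 and -4.98 (median -5.17) in controls. Of the 7 cortisol fetuses, 6 were above the control mean, and control replicate 1 was far below the other controls. The cortisol difference was -0.00 ± 0.15 at 130 d and 0.36 ± 0.14 at 140 d. Without cortisol replicate 4 and control replicate 3 it was 0.36 ± 0.14 at 140 d, but these arrays could hardly move it, since replicate 4 lay at its group's level for TRAF3. Over the fits that left out 1 array the value at 140 d ran from 0.25 to 0.43, lowest without control replicate 1. Within slides the difference was 0.13, -0.45 and 0.31 for slides 2, 3 and 4 at 130 d. At 140 d it was 0.89, 0.13, 0.40 and -0.18 for slides 2, 3, 4 and 5, and slide 2 held control replicate 1. With normexp the cortisol difference was 0.52 ± 0.34 at 130 d and 0.26 ± 0.31 at 140 d, where the medians of all tested probes were 0.20 and 0.05. The second TRAF3 probe, shifted by 1 base, gave -0.03 ± 0.19 at 130 d and 0.16 ± 0.17 at 140 d.

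Over all probes, 0% were called at an adjusted p under 0.05 in the cortisol comparison at 130 d, 0% at 140 d and 0% for the difference between the ages (limma, 12770 probes). At an unadjusted p under 0.05 the same fit gave 455, 726 and 743 probes. Since the members were picked from these comparisons, nothing is read from their standing among them. Between the ages 32.1% of the probes were called, 14.2% as higher and 17.9% as lower at 140 d.

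The comparison of 140 d with 130 d, averaged over the cortisol and control arms, was not used to choose the members and is close to independent of the cortisol differences. IL10 and TRAF3 fell, and the other 3 genes did not pass the test. IL10 averaged -6.13 ± 0.54 at 140 d and -4.96 ± 0.66 at 130 d (SD, n = 15 and 12), a change of -1.16 ± 0.20 (limma, adjusted p = 8.91e-05), which is 0.449 of the level at 130 d. At 140 d its probe was well above background on only 3 of 7 arrays with cortisol and 4 of 8 controls, so this size is uncertain. Of the 15 fetuses at 140 d, 14 were below the mean at 130 d, and cortisol replicate 4 was the exception. TRAF3 averaged -5.08 ± 0.34 at 140 d and -4.49 ± 0.22 at 130 d, a change of -0.57 ± 0.10 (limma, adjusted p = 0.000175), with 15 of 15 fetuses below the mean at 130 d. Its second probe changed by -0.68 ± 0.13 (limma, adjusted p = 0.000264).

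Both falls were negative within each slide that held both ages, from -1.64 to -0.84 for IL10 and from -0.74 to -0.51 for TRAF3 in slides 2, 3 and 4. They passed the test in each fit that left out 1 array. With normexp neither passed, and the changes were -0.16 for IL10 (limma, adjusted p = 0.811) and -0.06 for TRAF3 (limma, adjusted p = 0.920). The processed signals of IL10 averaged 15.6 ± 6.04 in cortisol and 10.9 ± 2.18 in control fetuses at 140 d, and 28.1 ± 9.49 in cortisol and 54.1 ± 26.5 in control fetuses at 130 d, so the offset is larger than most of these signals.

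ICAM1 changed by -0.46 ± 0.24 with age (limma, adjusted p = 0.137). Without cortisol replicate 4 its change was -0.59 (limma, adjusted p = 0.0241), and with control replicate 3 left out too it was -0.52 (limma, adjusted p = 0.0486), so 1 array decides on which side of the threshold ICAM1 lies. ALOX5AP changed by -0.22 ± 0.18 (limma, adjusted p = 0.370). TLR7 changed by 0.19 ± 0.13 (limma, adjusted p = 0.293), and by 0.33 with quantile normalization (limma, adjusted p = 0.0402).

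In each arm separately, the age differences were uneven, as follows from the cortisol differences that chose the genes, and they are given without a test. ICAM1 differed by 0.40 ± 0.34 between 140 d and 130 d in the cortisol arm and by -1.33 ± 0.33 in the control arm. ALOX5AP differed by 0.40 ± 0.26 with cortisol and by -0.85 ± 0.25 in controls. IL10 differed by -0.55 ± 0.28 with cortisol and by -1.76 ± 0.27 in controls, and TRAF3 by -0.39 ± 0.15 and -0.75 ± 0.14 in the same arms. TLR7 differed by 0.45 ± 0.19 with cortisol and by -0.07 ± 0.18 in controls. At 140 d the controls thus held the lowest mean of the 4 groups for ICAM1, IL10, ALOX5AP and TRAF3, and for TLR7 the lowest mean was that of the cortisol fetuses at 130 d.

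Other genes of the same pathways were read from lists that do not hold the members. Of 7 measured adhesion genes, 0 rose and 2 fell with age, 28.6% of the list against 32.1% of all tested probes, so the share called is no higher than the background. ITGA4, an integrin chain that binds VCAM1, was 1 of these. It cleared background on all 12 arrays of the younger age but at 140 d on only 0 of 7 with cortisol and 3 of 8 controls, so it was tested only because of its level at 130 d. Its test is therefore not taken as evidence, and no size or p value is given, though the 28.6% counts it. ITGB2, the shared chain of the leukocyte integrins that bind ICAM1, fell by 0.55 on the log2 scale (limma, adjusted p = 0.0152). The median change of the list was -0.04, against -0.02 over all tested probes.

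Among 10 cytokine genes, 3 fell and 1 rose with age, and 6 did not pass, so 40% were called against 32.1% of all tested probes. TNF, a main inflammatory cytokine, fell by 1.41 (limma, adjusted p = 0.000152) and IL18, which is released by the inflammasome, fell by 1.15 (limma, adjusted p = 0.00212). IL1A was not well above background on any of the 15 arrays at 140 d and was so on 10 of 12 at 130 d. It was therefore tested only because of its level at 130 d. Its level at 140 d has only a bound and was at least 1.43-fold lower. IL1A is 1 of the 3 counted as fallen and is part of the 40%. The filter on brightness favoured a fall of IL1A, so its test, which used the values without that bound, is not taken as evidence. That bound sets the mean at 130 d against the higher of the probe's own signal and the lowest signal well above background on each array at 140 d. IFNG, the interferon of lymphocytes, rose by 0.36 (limma, adjusted p = 0.00194). The probe used for IFNG was well above background on 27 arrays (mean level -4.10). The other IFNG probe was so on 0 arrays (mean level -8.20), so the rise of IFNG rests on the brighter probe alone. The list's median change was -0.15.

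In the Toll-like receptor list 2 of 13 genes fell and 2 rose with age, 30.8% of the list, which is near the 32.1% of all tested probes. CD40, a receptor that signals through TRAF3, fell by 0.99 (limma, adjusted p = 0.000370), and IRF3, a transcription factor downstream of TRAF3, fell by 0.30 (limma, adjusted p = 0.00292). NFKBIA, the inhibitor of NF-kappaB, rose by 0.82 (limma, adjusted p = 0.00362), and TLR6, a surface receptor for lipopeptides, rose by 0.30 (limma, adjusted p = 0.0263). The list's median change was -0.14. Without cortisol replicate 4, 7 of the 13 passed, and without control replicate 3 as well, 6. None of the 6 measured eicosanoid genes passed the test (limma, 0 also at an unadjusted p under 0.05), and the smallest p values were those of the prostaglandin receptor gene PTGER4 (0.28, limma, adjusted p = 0.169) and of PTGDS, a prostaglandin synthase (0.17, limma, adjusted p = 0.375). With the normexp correction 0 adhesion, 0 cytokine, 0 eicosanoid and 1 Toll-like receptor genes passed. The partners of ALOX5AP in leukotriene synthesis, ALOX5, LTA4H and LTC4S, had no tested probe with a name.

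**Figure D3:**
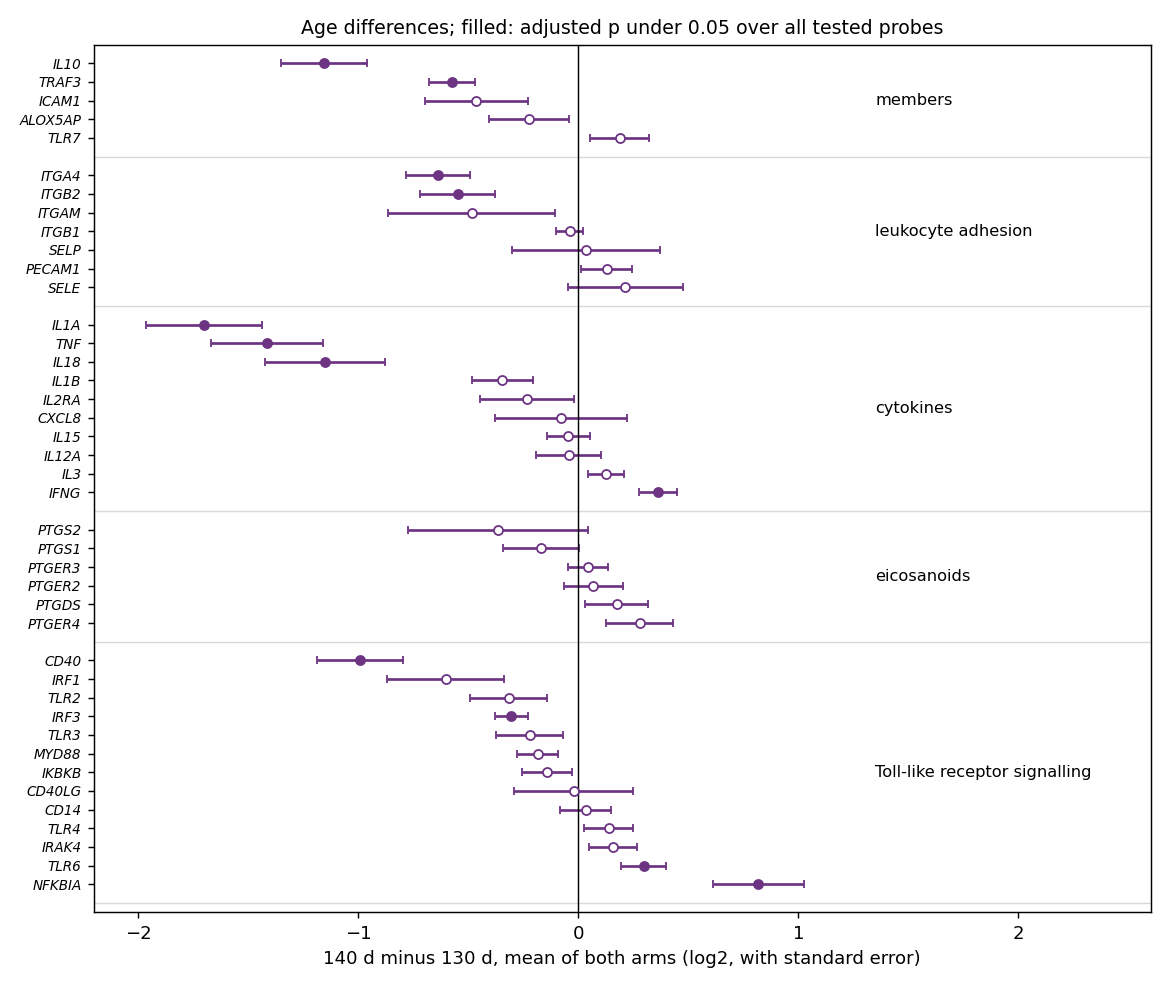
Level at 140 d minus that at 130 d, averaged over both arms (horizontal axis, log2, with standard error), for the 5 genes and the measured genes of 4 lists. Filled points passed the test, and among the members these are IL10 (-1.16) and TRAF3 (-0.57). IL1A and ITGA4 were tested only because of their levels at 130 d.

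In the cortisol comparisons 0 genes of these 4 lists passed the test at either age (limma), where 0% of all probes were called. An unadjusted p under 0.05 (limma) was found for 4 of the 36 measured genes at 130 d and 2 at 140 d. Over all 12770 tested probes it was found for 455 at 130 d and 726 at 140 d. In the Toll-like receptor list 12 of 13 values were negative at 130 d (median -0.18, against 0.01 over all probes), and 11 of 13 were positive at 140 d (median 0.22, against -0.04). Without cortisol replicate 4, 9 of 13 were positive at 140 d (median 0.08), and without control replicate 3 as well, 10 of 13 were negative at 130 d (median -0.03). With the normexp correction 11 of 13 were positive at 130 d (median 0.22), where the median of all probes was 0.20. The adhesion list had 6 of 7 negative values at 130 d and 5 of 7 positive ones at 140 d, and with normexp 5 of 7 were positive at 130 d. The cytokine list was split 5 to 5 at 130 d and had 6 of 10 positive values at 140 d. The eicosanoid list had 5 of 6 negative values at 130 d and 3 of 6 at 140 d.

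Markers of myeloid cells had the same signs as ICAM1, IL10 and ALOX5AP. Of 8 such markers, 4 were measured (CD14, FCER1G, LYZ and ITGAM), and each was well above background on some array. ITGAM was so on only 2 of 6 arrays with cortisol and 4 of 6 controls at 130 d, and on 1 of 7 and 2 of 8 at 140 d. Its cortisol differences (-0.51 ± 0.56 and 0.21 ± 0.50) have uncertain signs. The summed signal of the 4 markers, in percent of the array's 75th percentile, ranged from 46.7 to 89.8 (median 59.8) in cortisol and from 57.2 to 186 (median 88.0) in control fetuses at 130 d. At 140 d it ranged from 48.3 to 173 (median 52.0) in cortisol and from 37.2 to 62.8 (median 51.2) in control fetuses. The highest sums were those of control replicate 3 at 130 d and cortisol replicate 4 at 140 d, the arrays on which ALOX5AP was highest as well. Replicate 4 was not high in myeloid markers alone. It also had its group's highest sums of fibroblast markers (33691%, group median 14666%) and endothelial markers (674%, group median 417%), but not of lymphocyte or red blood cell markers. All 4 myeloid markers were lower with cortisol at 130 d (median -0.59) and higher with cortisol at 140 d (median 0.15), and without cortisol replicate 4 the signs at 140 d were split 2 to 2. With normexp 2 of the 4 were negative and 2 positive at 130 d (median 0.04, against 0.20 over all probes). All 4 were positive at 140 d with normexp (median 0.17, against 0.05). None of the 4 passed the cortisol tests. The part of these markers in the differences of the 5 genes was not tested.

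ITGB2, which all leukocytes carry, had the same signs as the myeloid markers. It ranged from 18.3 to 35.9% of the 75th percentile (median 23.4) in cortisol and from 21.9 to 73.0% (median 36.7) in control fetuses at 130 d, and at 140 d from 15.8 to 53.7% (median 19.4) in cortisol and from 14.5 to 21.2% (median 18.3) in control fetuses. The 3 measured lymphocyte markers of 8 (CD3E, CD3D and CD5) summed to 21.5 to 43.5% (median 24.9) in cortisol and 21.3 to 51.0% (median 36.8) in control fetuses at 130 d, and to 10.4 to 28.7% (median 23.6) in cortisol and 11.9 to 41.9% (median 26.7) in control fetuses at 140 d. The 5 endothelial markers measured of 8, in cells that carry ICAM1, had group medians of 394% in cortisol and 409% in control fetuses at 130 d, and of 417% in cortisol and 399% in control fetuses at 140 d. The red blood cell markers HBB and AHSP were also lower with cortisol at 130 d (median -0.04) and higher at 140 d (median 0.95). Their summed signal had a median of 3332% in cortisol and 3566% in control fetuses at 130 d. At 140 d it was 1697.5% in cortisol and 609.6% in control fetuses. Neither passed the cortisol tests. With age, 0 markers of these lists rose. Those that fell were 1 of 4 myeloid markers (LYZ), 1 of 3 lymphocyte markers (CD3E) and 1 of 5 endothelial markers (KDR). Of the fibroblast markers 3 of 5 fell, as did both red blood cell markers and ITGB2. Of all tested probes 32.1% were called between the ages and 17.9% fell. A single marker of a short list is therefore not read as a fall of a cell type. The part of these in the fall of IL10 and TRAF3 was not tested.

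With the group means removed, 4 of the 10 pairs of members passed a test of varying together among fetuses. Each array's value was taken minus the mean of its group, over 27 arrays, and p values came from 100000 two-sided permutations within groups, adjusted over the 10 pairs. IL10 and ALOX5AP correlated at r = 0.76 (permutation p = 0.00043, adjusted 0.0043) and rho = 0.63 (permutation p = 0.00241, adjusted 0.0241). ICAM1 correlated with IL10 at r = 0.66 (permutation p = 0.00779, adjusted 0.0390; rho = 0.54, adjusted 0.0681), with ALOX5AP at r = 0.62 (permutation p = 0.0170, adjusted 0.0450; rho = 0.47, adjusted 0.114) and with TLR7 at r = 0.42 (permutation p = 0.0180, adjusted 0.0450; rho = 0.35, adjusted 0.142). The 3 pairs among ICAM1, IL10 and ALOX5AP had the highest r here, and only IL10 with ALOX5AP also passed by rank. With normexp the order was different, since all 10 pairs passed and the highest r were those of IL10 with TRAF3 (0.98), TRAF3 with TLR7 (0.97) and IL10 with TLR7 (0.95), while IL10 with ALOX5AP was at 0.66. Without normexp the first of these pairs had r of 0.13, 0.03 and 0.05. IL10, TLR7 and TRAF3 were the dimmest members, with group mean signals from 10.9 to 54.1 beside the added offset of 50. The r of these dim pairs with normexp are therefore not read as genes that vary together.

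The 4 pairs with TRAF3 had r between 0.03 and 0.34, TLR7 correlated with IL10 at 0.05 and with ALOX5AP at 0.13, and none of these passed. Without the 2 arrays farthest from the median of the first gene, r was 0.62 for IL10 with ALOX5AP, 0.55 for ICAM1 with IL10, 0.61 for ICAM1 with ALOX5AP and 0.22 for ICAM1 with TLR7. The same step took ICAM1 with TRAF3 to 0.48, against 0.20 over all arrays (rho = 0.43, permutation, adjusted p = 0.116). Without cortisol replicate 4 at 140 d alone, 0 of 10 pairs passed, and r was 0.65 for IL10 with ALOX5AP (permutation, adjusted p = 0.0537), 0.48 for ICAM1 with IL10 and 0.46 for ICAM1 with ALOX5AP. The calls therefore rest on that array. It also raised the means of ICAM1, IL10 and ALOX5AP in the cortisol fetuses at 140 d, which entered the choice of the members. The correlations are thus not independent of that choice.

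The named genes whose within-group deviations were most like a member's were found among 703 genes, as a description. For ALOX5AP they were ITGB2 (r = 0.93), CD86 (r = 0.91), a costimulatory protein of antigen-presenting cells, and FCGR1A (r = 0.89), the high-affinity IgG receptor of monocytes and macrophages. With cortisol replicate 4 left out these were 0.91, 0.89 and 0.85. For IL10 they were CD86 (r = 0.83), the transcription factor gene JUNB (0.76) and ALOX5AP (0.76), and without that array 0.70, 0.56 and 0.65.

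ICAM1 was nearest to IRF1 (r = 0.73), a transcription factor induced by interferons, to RCAN1 (0.69), an inhibitor of calcineurin, and to CD86 (0.67), and without cortisol replicate 4 these were 0.65, 0.51 and 0.47. TRAF3 was nearest to PABPC1 (r = 0.73), the poly(A)-binding protein, and to the TNF receptor gene TNFRSF1A (0.60). TLR7 was nearest to PRNT (r = 0.69), KRTAP4.3 (0.68) and NPY (0.68), a neuropeptide. PRNT, like TLR7, was dim, at percentile 9.35 of brightness, while KRTAP4.3 stood at 21.2 and NPY at 49.0.

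The neighbours of ALOX5AP had the signs of ALOX5AP in the group means as well, though none of them passed the cortisol tests. CD86 differed between cortisol and control by -0.63 ± 0.36 at 130 d and 0.45 ± 0.33 at 140 d, ITGB2 by -0.61 ± 0.25 and 0.34 ± 0.23, and FCGR1A by -0.84 ± 0.47 and 0.78 ± 0.42. IRF1, the nearest to ICAM1, differed by -1.26 ± 0.40 at 130 d and 0.84 ± 0.36 at 140 d. Unlike ALOX5AP, its 3 neighbours fell with age: CD86 by 0.74 (limma, adjusted p = 0.0215), ITGB2 by 0.55, and FCGR1A to a mean of -4.86 with cortisol and -5.64 in controls at 140 d, against -4.57 with cortisol and -3.73 in controls at 130 d (limma, adjusted p = 0.00965). Whether their fall differs from the change of ALOX5AP (-0.22) was not tested.

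**Figure D4:**
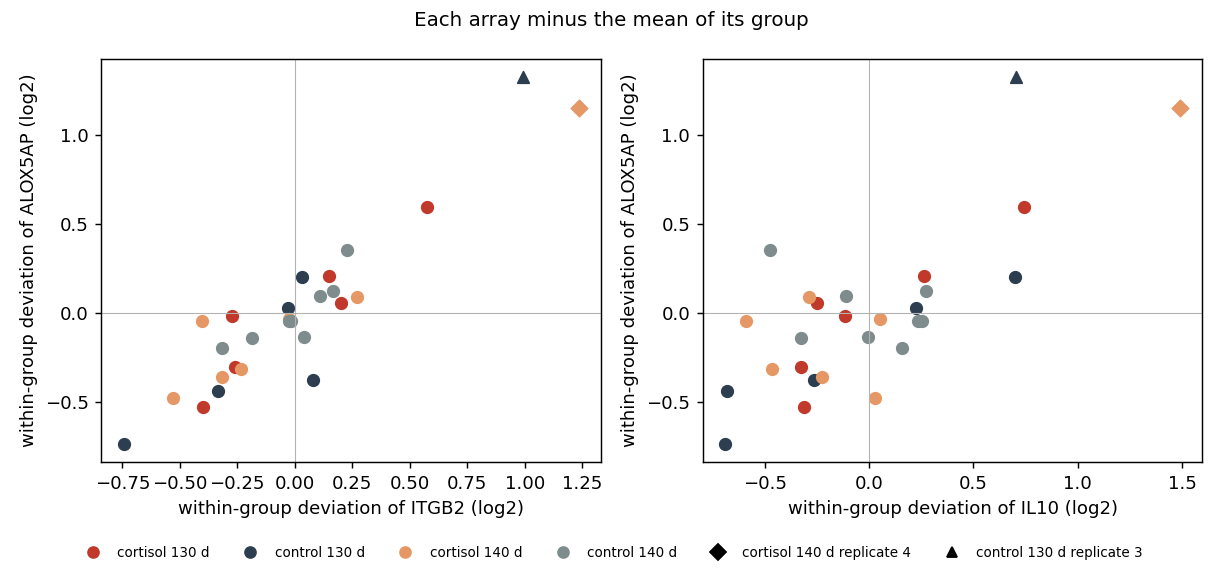
Within-group deviation of ALOX5AP (vertical axes, log2, array minus group mean) against that of ITGB2 (left) and IL10 (right), with 1 point for each of 27 arrays. The points follow a line against ITGB2 (r = 0.93) more closely than against IL10 (r = 0.76), and cortisol replicate 4 at 140 d and control replicate 3 at 130 d lie at the upper right of both.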

How the data were processed

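RNA from the septum of 27 fetal sheep in 4 groups was measured on 1-colour arrays on 5 slides. The deposited files are scanner output. Their intensity of each spot had the background subtracted and a spatial trend removed, with no normalization across arrays, per the file headers, and the submitters' processing notes name Agilent Feature Extraction 10.1.1.1 as the software. The authors also deposited a table of log2 values, in which each column differs from the log2 scanner signal by 1 constant whose basis is not given in the sources used here. It served as an alternative.

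From the scanner signal the log2 level relative to each array's 75th percentile was computed. Outlying spots were dropped, repeat spots averaged, and a probe was tested if at least 6 arrays had it well above background. Of 12770 such probes, 1080 had a symbol, for 715 genes, from the files' names or through RefSeq accessions in the sheep gene table. The probe with the highest mean stood for a gene. The 4 group means were fitted together with limma 3.58.1 in R 4.3.3 (lmFit and eBayes, 2-sided, Benjamini-Hochberg over all tested probes, threshold 0.05), which was tested on simulated data. The number of arrays limits the precision.

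The members and the gene lists were chosen with earlier results of these data known. Named list genes were those past the threshold, at most 4 per list, or otherwise the 2 with the smallest p. Named neighbours were the 3 genes with the highest within-group r, of which 1 is not reported here. Alternatives were the normexp correction, quantile and median normalization, other filters, slide and replicate blocks, the deposited table, single probes and leaving out each array.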

Additional observations from a re-analysis of the deposited data

Results flagged for a closer look

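In 5 of 20 gene and group combinations of the members, 1 array lay apart from the rest of its group by the ratio of its gap to the group's range. Chance alone gives this in about 1 of 20. On cortisol replicate 4 at 140 d these were ICAM1 (-2.31, gap over range 0.665), IL10 (-4.42, 0.692) and ALOX5AP (-0.42, 0.652). The other 2 were the low values of ICAM1 on control replicate 5 at 140 d (-5.36, 0.563) and of TRAF3 on control replicate 1 at 140 d (-6.03, 0.650), an array that correlated with the rest of its group at r = 0.978.

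For ICAM1 and ALOX5AP every cortisol fetus at 130 d lay below the mean of its controls and every cortisol fetus at 140 d above it. The cortisol difference at 140 d minus that at 130 d was 1.73 for ICAM1 and 1.25 for ALOX5AP. It was not tested, because the genes were chosen for it.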

How the results depend on the processing

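The fall of IL10 and TRAF3 with age held its direction and its side of the threshold in all alternatives run except normexp (-0.16 for IL10 and -0.058 for TRAF3). ICAM1 passed without cortisol replicate 4 at 140 d (-0.59) and, in a fit chosen after the data were seen, without control replicate 3 at 130 d as well (-0.52), and TLR7 passed with quantile normalization (0.33). Normexp gave 1551 probes called between the ages against 4100, 0 adhesion, 0 cytokine and 1 Toll-like receptor genes, and 10 correlated pairs of members, and turned ITGA4 (0.074). It also moved 8 of the 15 cortisol values of the members by more than 1 SD and turned the sign at 130 d of IL10 (0.28), TRAF3 (0.52) and TLR7 (0.40), where the median of all tested probes was 0.20. Its added offset is as large as the dim signals. Quantile normalization gave 1 eicosanoid gene and 1 correlated pair, slide as a fixed block 1 eicosanoid gene, and the fit without both arrays 1.

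With the replicate block 4039 probes were called between the ages and 1 for the difference of the cortisol effect (the samples share only a number, since 6 of 13 same-numbered pairs had deviations correlating above 0.1, from -0.0888 to 0.363, and 5 of 13 were most like their own number), and IL10 and TRAF3 still passed. Leaving out 1 array at a time gave 3674 to 4865 probes between the ages, 0 to 2 for the difference of the cortisol effect and 0 for cortisol at either age, -0.59 to -0.30 for ICAM1, -1.28 to -1.08 for IL10, -0.61 to -0.52 for TRAF3, -0.32 to -0.09 for ALOX5AP and 0.13 to 0.24 for TLR7, and 2 to 2 adhesion, 4 to 5 cytokine, 0 to 1 eicosanoid and 3 to 7 Toll-like receptor genes. The 1 such fit of the correlations, without cortisol replicate 4, left 0 pairs.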
